A study of Mus musculus with 6 samples.

Results

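The genes described here are 10 genes of the definitive gut endoderm, chosen by name and followed among 18193 genes measured in mouse embryos: Sox17, Foxa1, Foxa2, Foxa3, Hhex, Trh, Pyy, Nepn, Spink3 and Cpm. All 10 were matched, Spink3 under its present symbol Spink1, and the 10 genes had 12 probe sets. The brightest probe set on average over the 6 arrays stands for each gene, and the remaining probe set of Sox17 and of Cpm is given beside it. RNA of whole embryos at embryonic day 8.5 was hybridised to 1 single-colour array per sample. The double knockout embryos were Fz2-/-; Fz7-/- and the single knockout embryos were Fz2+/+; Fz7-/-, with 3 arrays each, so both groups lacked Fz7 and the comparison asks what the further loss of Fz2 does. Per the labels every sample was of mixed gender on a mixed C57BL6/129 background and none was treated; whether embryos were pooled is not stated. Fz2 and Fz7 (Fzd2 and Fzd7 on the array) encode Frizzled receptors for Wnt ligands.

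The definitive endoderm leaves the epiblast through the primitive streak during gastrulation, under Nodal signalling, and inserts into the outer layer that the visceral endoderm covered before. At the stage sampled it is folding into the gut tube. Sox17 and the Foxa factors switch on endodermal genes in it, Hhex marks its anterior part, and Trh, Pyy, Nepn, Spink3 and Cpm are used in mouse embryos as markers of its early regions or of gut derivatives. Several of these genes have other sites of expression: Sox17 and Hhex in endothelium, Foxa1 and Foxa2 in the node, notochord and floor plate, and Sox17, Foxa2 and Hhex in visceral endoderm.

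In these whole embryos 9 of the 10 genes had a mean above the array medians over all probe sets, 5.79 to 5.82. Foxa3 lay below these medians in 5 of the 6 arrays. Over the genes tested, each at its brightest probe set, the array medians were 7.04 to 7.14, and the Trh mean of 7.02 lay below those too. Gut endoderm is a small share of the embryo, and in a bulk sample fewer endoderm cells and less RNA per endoderm cell cannot be told apart.

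The windows of 250 bases before the gene start are shown for 4 of the genes. Nepn was taken because it was the gene with lower values in all double knockout arrays. Foxa3 and Trh were taken from the genes that stood highest in 1 double knockout array. Others of these, such as Spink3, are not shown. Foxa1 was taken because its values were higher in the double knockout on average and a forkhead motif lies before it. The windows are RefSeq sequences of build GRCm38.p6, printed 5′ to 3′ on the strand of the gene. Capitals mark any match, on either strand, to the forkhead motifs TGTTTAC and TATTTAC, the GATA motif AGATAA, the TCF/LEF motif CTTTGAT or the TATA box TATAAA.
Nepn, chr10:52391358-52391607, plus strand: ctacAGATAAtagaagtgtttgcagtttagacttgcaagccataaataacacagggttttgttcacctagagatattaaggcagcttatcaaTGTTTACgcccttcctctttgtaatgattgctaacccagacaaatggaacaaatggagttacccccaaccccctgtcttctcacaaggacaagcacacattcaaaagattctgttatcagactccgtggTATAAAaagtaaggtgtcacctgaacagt
Foxa3, chr7:19023540-19023789, minus strand: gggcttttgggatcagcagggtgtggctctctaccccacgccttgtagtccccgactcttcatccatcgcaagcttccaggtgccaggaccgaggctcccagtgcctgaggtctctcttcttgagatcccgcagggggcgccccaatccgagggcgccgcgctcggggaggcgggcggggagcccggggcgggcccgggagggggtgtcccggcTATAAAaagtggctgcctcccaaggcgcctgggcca
Trh, chr6:92244651-92244900, minus strand: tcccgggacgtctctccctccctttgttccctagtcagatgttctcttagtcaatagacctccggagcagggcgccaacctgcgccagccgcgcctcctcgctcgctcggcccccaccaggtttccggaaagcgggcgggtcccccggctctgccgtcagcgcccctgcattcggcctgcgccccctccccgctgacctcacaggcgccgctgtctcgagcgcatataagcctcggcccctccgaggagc
Foxa1, chr12:57546112-57546361, minus strand: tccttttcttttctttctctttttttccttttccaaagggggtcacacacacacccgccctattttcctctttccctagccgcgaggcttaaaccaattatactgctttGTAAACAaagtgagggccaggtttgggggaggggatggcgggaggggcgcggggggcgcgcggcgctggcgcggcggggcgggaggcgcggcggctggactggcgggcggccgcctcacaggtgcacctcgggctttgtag

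The Nepn window held a forkhead match that starts 158 bases before the gene start, a GATA match at 246 bases and a TATA box at 29 bases. Foxa3 had a TATA box at 36 bases and Foxa1 a forkhead match, on the opposite strand, at 141 bases. None of these motifs occurred in the Trh window. No listed motif overlapped another in these windows. Of 32536 different windows of the same length, 3.17% held TGTTTAC, 2.72% TATTTAC, 9.97% AGATAA, 3.21% CTTTGAT and 12.31% TATAAA. Windows of 8 of the 10 genes were searched, and those of Sox17 and Spink3 were not. Across these 8 genes TGTTTAC was found for 2, Foxa1 and Nepn, and TATTTAC and CTTTGAT for 0. AGATAA was found for Foxa2 and Nepn, and TATAAA for Foxa2, Foxa3 and Nepn. These 8 genes had 11 windows, and the shares over all windows are per window and not per gene. The Nepn window was the poorest in G and C of these genes, at 40.4%, against 62.0% for Foxa1, 68.8% for both Foxa3 and Trh, and a median of 52.4% over all windows.

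Fzd2, the gene that separates the groups, checked the labels. On its brightest probe set it read 7.30, 7.69 and 7.63 in double knockout replicates 1 to 3 and 9.86, 9.99 and 10.01 in single knockout replicates 1 to 3, on the log2 scale used throughout. The difference was -2.42 (SE 0.11, limma adjusted p = 0.00567), and Fzd2 was the 1 gene of 18193 that passed, or 0.0055%. Double knockout replicate 1 stood apart from the remaining arrays, as 479 of its genes departed by over 1 log2 unit from the average of the rest, against 18 to 37 genes for any other array. The difference of each endoderm gene is therefore given with and without it.

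No gut endoderm gene passed the test. Of the 10 genes 8 had a higher mean in the double knockout and 2, Nepn and Pyy, a lower one, where 46.2% of all genes had a difference above 0. The median difference of the 10 genes was 0.24, against -0.0093 over all genes tested. Without double knockout replicate 1 the median was 0.15, again with 8 genes above 0 (46.7% of all genes), and the median over all genes was -0.0067. At an unadjusted p under 0.05 limma counted 2 of the 10 genes, Sox17 and Foxa1, where 4.96% of all genes reached that level. Both were higher, as were 1.96% of all genes at that level. The groups did not overlap for 2 of the 10 genes, Sox17 on the higher and Nepn on the lower side, against 11.4% of all genes, or 4.85% on the higher and 6.6% on the lower side.

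**Figure D1:**
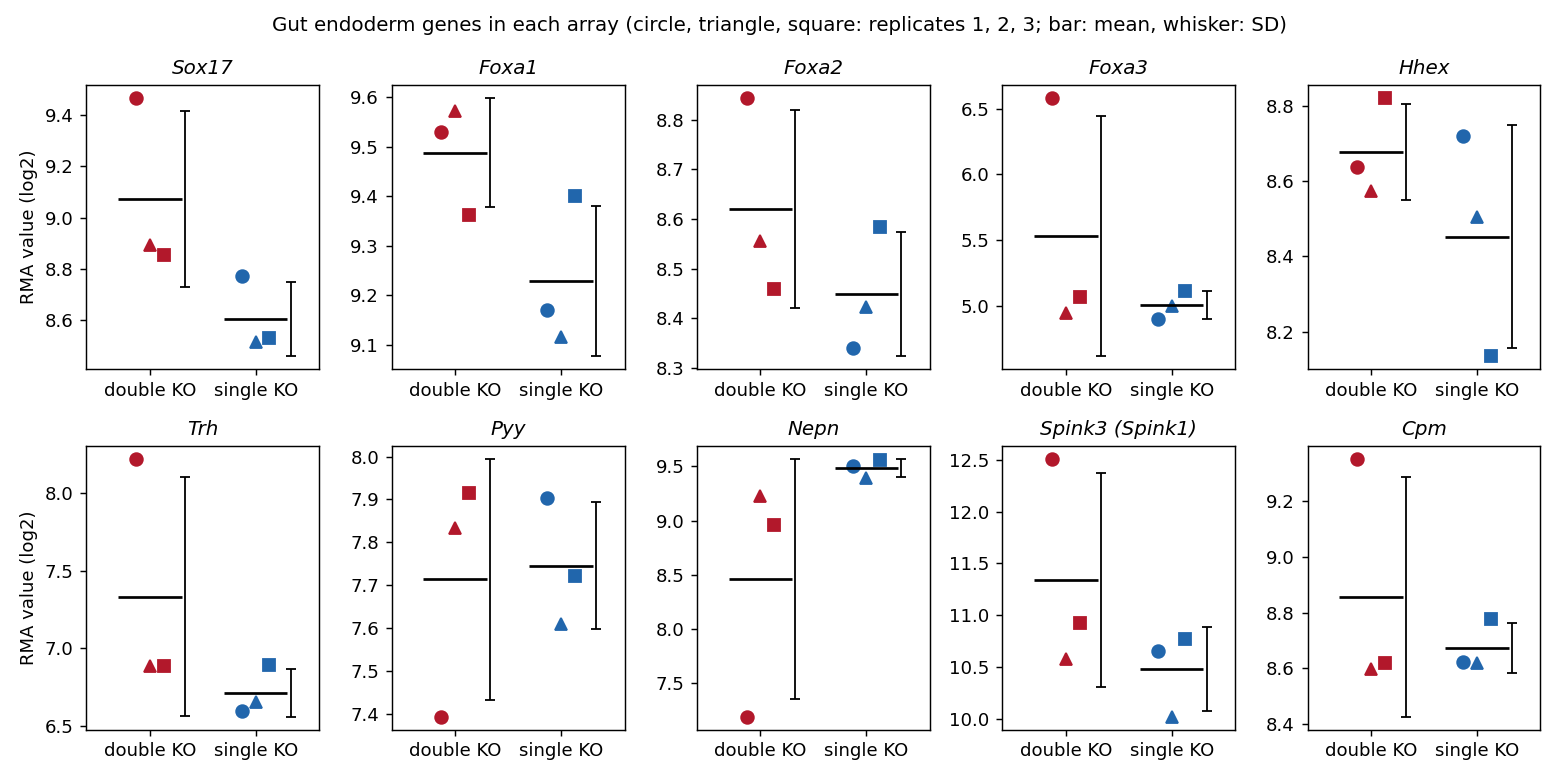
RMA value (log2, vertical axis, a separate scale per gene) of the 10 gut endoderm genes in each array, double knockout in red on the left and single knockout in blue on the right; horizontal bars are means and whiskers SD over 3 arrays. Sox17 and Nepn are the genes whose groups do not overlap, and double knockout replicate 1 (red circle) is the highest of the 6 arrays for 6 genes and the lowest for Nepn and Pyy.

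Sox17, an SRY-related factor required for definitive endoderm in the mouse, was higher in all 3 double knockout arrays. It read 9.47, 8.89 and 8.86 in double knockout replicates 1 to 3 and 8.77, 8.51 and 8.53 in single knockout replicates 1 to 3. Every double knockout array lay above every single knockout array, although the gap between the nearest arrays was only 0.08. The difference was 0.47 (SE 0.18, 95% interval 0.045 to 0.89), a 1.38-fold higher level, with limma adjusted p = 0.872 and an exact permutation p of 0.1, the smallest that 3 against 3 arrays allow. The dimmer Sox17 probe set separated the groups as well, with 8.43, 8.01 and 8.30 in the double knockout and 7.99, 7.75 and 7.87 in the single knockout. Its difference was 0.37 (SE 0.12, limma adjusted p = 0.920 over all probe sets). The brighter set carries the suffix that the array maker gives to sets whose probes may bind other transcripts. Without double knockout replicate 1 the Sox17 difference was 0.27 (SE 0.09, 95% interval 0.045 to 0.50, limma adjusted p = 0.707). Its groups were separate with all arrays, and leaving 1 out cannot make them overlap.

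The Foxa genes encode forkhead pioneer factors that open chromatin for endodermal genes. Foxa1 was 9.53, 9.57 and 9.36 in the double knockout arrays, against 9.17, 9.12 and 9.40 in single knockout replicates 1 to 3. The groups overlapped by a single array, since single knockout replicate 3 lay above double knockout replicate 3. The Foxa1 difference of 0.26 (SE 0.10, 95% interval 0.024 to 0.49, limma adjusted p = 0.872, exact permutation p = 0.2) was hardly moved without double knockout replicate 1, at 0.24 (SE 0.11). Foxa1 was the transcription factor gene of the set, beside Hhex, whose level in that array stayed within the range of the other 5 arrays.

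Foxa2, which is also needed for the node and notochord, read 8.84, 8.56 and 8.46 in the double knockout and 8.34, 8.42 and 8.58 in the single knockout. Only replicate 1 of the double knockout lay above all single knockout arrays. The Foxa2 difference was 0.17 (SE 0.12, 95% interval -0.11 to 0.45), and 0.059 without that array. Foxa3, which acts later in gut and liver, was the dimmest of the 10 genes, and values near background understate differences. It read 6.58, 4.95 and 5.06 in the double knockout and 4.903, 4.995 and 5.113 in the single knockout. The difference rested on 1 array: it was 0.53 (SE 0.42) with all arrays and 0.00079 (SE 0.08, 95% interval -0.20 to 0.20) without double knockout replicate 1. For Foxa2 and Foxa3 limma gave adjusted p = 0.872 and 0.875.

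Hhex, a homeobox gene of the anterior endoderm and later of liver and thyroid, read 8.64, 8.57 and 8.82 in the double knockout and 8.720, 8.505 and 8.135 in the single knockout. The groups overlapped, and the single knockout spread of 0.58 was wider than the difference of 0.22 (SE 0.15, 95% interval -0.15 to 0.60, limma adjusted p = 0.872). Double knockout replicate 1 was not set apart for Hhex: without it the difference was 0.25.

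Trh and Pyy encode precursors of secreted peptides, thyrotropin-releasing hormone and the gut hormone peptide YY. Trh read 8.22, 6.89 and 6.89 in the double knockout and 6.60, 6.65 and 6.89 in the single knockout. Double knockout replicate 1 stood far above the rest, and the other two double knockout arrays were level with single knockout replicate 3, so that the groups overlapped by 0.0026. The Trh difference was 0.62 (SE 0.36, 95% interval -0.25 to 1.49, limma adjusted p = 0.872), and 0.17 (SE 0.10) without that array. Pyy read 7.39, 7.83 and 7.92 in the double knockout and 7.90, 7.61 and 7.72 in the single knockout. For this gene double knockout replicate 1 was the lowest array, and the sign of the Pyy difference depended on it, at -0.032 (SE 0.15, limma adjusted p = 0.975) with all arrays and 0.13 (SE 0.10, limma adjusted p = 0.871) without it. The 95% interval of the Pyy difference with all arrays was -0.40 to 0.33.

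Nepn encodes nephrocan, a secreted leucine-rich repeat protein that marks the middle part of the gut endoderm in mouse embryos, and it had the most negative difference of the set. It was 7.19, 9.23 and 8.96 in the double knockout arrays, against 9.50, 9.39 and 9.56 in single knockout replicates 1 to 3. All double knockout arrays lay below all single knockout arrays, with a gap of 0.16 between the nearest, and the single knockout arrays spanned only 0.17. The difference was -1.03 (SE 0.51, 95% interval -2.25 to 0.19), so that the mean level was 49.1% of the single knockout, with limma adjusted p = 0.872 and an exact permutation p of 0.1. Without double knockout replicate 1 the difference was smaller and its error too, at -0.39 (SE 0.10, 95% interval -0.63 to -0.15, unadjusted p = 0.00692, limma adjusted p = 0.701). In that setting 12.3% of all genes had double knockout arrays that lay below all single knockout arrays. Nepn was 1 of 10 endoderm genes in that class, and Sox17 was 1 of 10 in the opposite class, which held 10% of all genes. Both genes had separate groups with all arrays, which leaving out 1 array could not change.

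Spink3 (Spink1), which encodes a secreted trypsin inhibitor of the Kazal type, read 12.51, 10.58 and 10.92 in the double knockout and 10.65, 10.02 and 10.77 in the single knockout. The difference of 0.85 (SE 0.51, 95% interval -0.36 to 2.07) was the largest on the higher side of the set, but the groups overlapped, and it was 0.27 (SE 0.23) without double knockout replicate 1. Cpm encodes carboxypeptidase M, a membrane-bound enzyme that trims peptides. Cpm read 9.35, 8.60 and 8.62 in the double knockout and 8.62, 8.62 and 8.78 in the single knockout. Its difference of 0.18 (SE 0.21) rested on replicate 1 and was -0.064 (SE 0.07, 95% interval -0.24 to 0.11) without it. The dimmer Cpm probe set had the same pattern, with 8.97, 8.09 and 8.14 in the double knockout and 8.19, 8.02 and 8.22 in the single knockout. For Spink3 and Cpm limma gave adjusted p = 0.872 and 0.897.

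**Figure D2:**
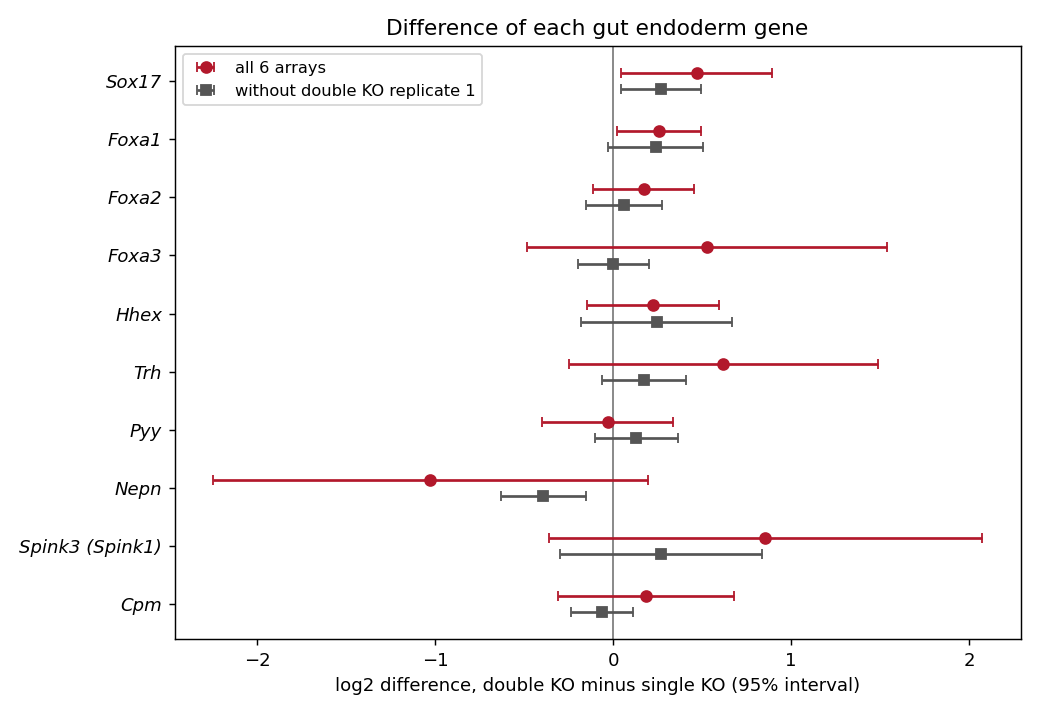
Log2 difference, double knockout minus single knockout (horizontal axis), with its 95% interval from limma, for each of the 10 genes with all 6 arrays (red circles) and without double knockout replicate 1 (grey squares). Foxa3, Trh, Nepn and Spink3 move most towards 0 when that array is left out, while Foxa1 (0.26 with and 0.24 without it) and Hhex (0.22 and 0.25) move least.

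Double knockout replicate 1 differed from the other 5 arrays by more than 1 log2 unit for 4 of the 10 genes, where 2.63% of all genes did so, 1.16% higher and 1.47% lower. Spink3 was higher in it by 1.92, Foxa3 by 1.58 and Trh by 1.44, whereas Nepn was lower, at -2.14. Among the 18193 genes ranked from the highest to the lowest value of this difference, Spink3 was at place 66, Foxa3 at 103 and Trh at 118, and Nepn was 37 places from the low end. Sox17 (0.76), Cpm (0.71) and Foxa2 (0.37) were higher by less, Foxa1 (0.20) and Hhex (0.086) stayed within the range of the other arrays, and Pyy was lower (-0.40). This is 1 array, so these values have no replicate and no test.

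**Figure D3:**
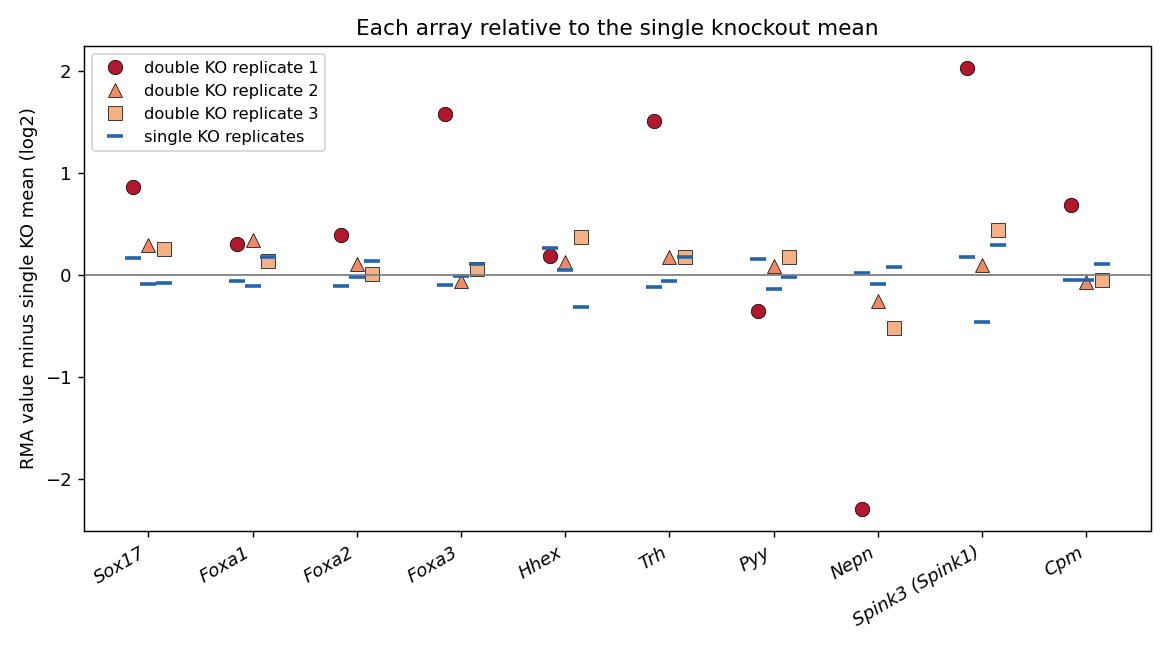
RMA value of each array minus the mean of the 3 single knockout arrays (log2, vertical axis) for each gut endoderm gene; filled symbols are double knockout replicates 1 to 3 and blue dashes the single knockout arrays. Replicate 1 lies above 1.5 for Foxa3, Trh and Spink3 and below -2 for Nepn, while replicates 2 and 3 lie between -0.53 and 0.44 for all 10 genes.

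In double knockout replicates 2 and 3 the departures were smaller. Against the single knockout mean, 7 of the 10 genes were higher in replicate 2 and 8 in replicate 3, with medians of 0.10 and 0.15, and the median of replicate 1 was 0.54. Single knockout replicate 3 itself had 7 genes above that mean and a median of 0.11, and the medians of single knockout replicates 1 and 2 were -0.017 and -0.075. The medians of double knockout replicates 2 and 3 lay within 0.05 of that of single knockout replicate 3.

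Markers of other tissues also differed in double knockout replicate 1. Of 17 visceral endoderm genes measured, 16 were more than 1 log2 unit higher in it than in the other 5 arrays. The log2 of their summed linear values was 15.49 in double knockout replicate 1, 13.08 and 13.10 in replicates 2 and 3, and 13.03 to 13.45 in the single knockout, and 1 of the 17 had a mean below the array medians. The same sum over the 10 gut endoderm genes, to which Spink3 contributes most, was 13.21, 12.26 and 12.33 in the double knockout and 11.99 to 12.29 in the single knockout. The part of visceral endoderm RNA in the levels of Sox17, Foxa2, Foxa3, Hhex, Trh, Spink3 or Cpm in replicate 1 was not tested. Without that array 8 of the 17 visceral endoderm genes were above 0 and 9 below, with a median of -0.065.

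Endothelial genes were lower in that array, 5 of them by more than 1 log2 unit, and all 12 measured had a lower mean in the double knockout (median -0.21). Their sum was 11.49, 12.21 and 12.27 in the double knockout, against 12.01 to 12.25 in the single knockout. Without the array 10 of the 12 were higher and their median was 0.10. Of the SoxF relatives of Sox17 that act in vessels, Sox18 differed by -0.24 (SE 0.33) and Sox7 by -0.019 (SE 0.18), and both were above 0 without the array, at 0.16 and 0.15. In that setting Sox17 (0.27) was higher together with them, and the part of endothelium in the Sox17 values was not tested. Node, notochord and floor plate genes were higher for 6 of 7, with a median of 0.27. Without the array 4 of 7 were higher and 3 lower, with a median of 0.20. Their sum was 11.38, 10.82 and 10.80 in the double knockout and 10.67 to 10.80 in the single knockout, and 4 of the 7 were below the array medians. Foxd4 (1.00, SE 0.36) and Nog (0.27, SE 0.10) had the smallest unadjusted p of that list, both at limma adjusted p = 0.872, and differed by 0.59 and 0.37 without the array. At an unadjusted p under 0.05 limma counted 3 of these 7 genes, all higher, where 1.96% of all genes were higher at that level. None of the 7 passed after adjustment.

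**Figure D4:**
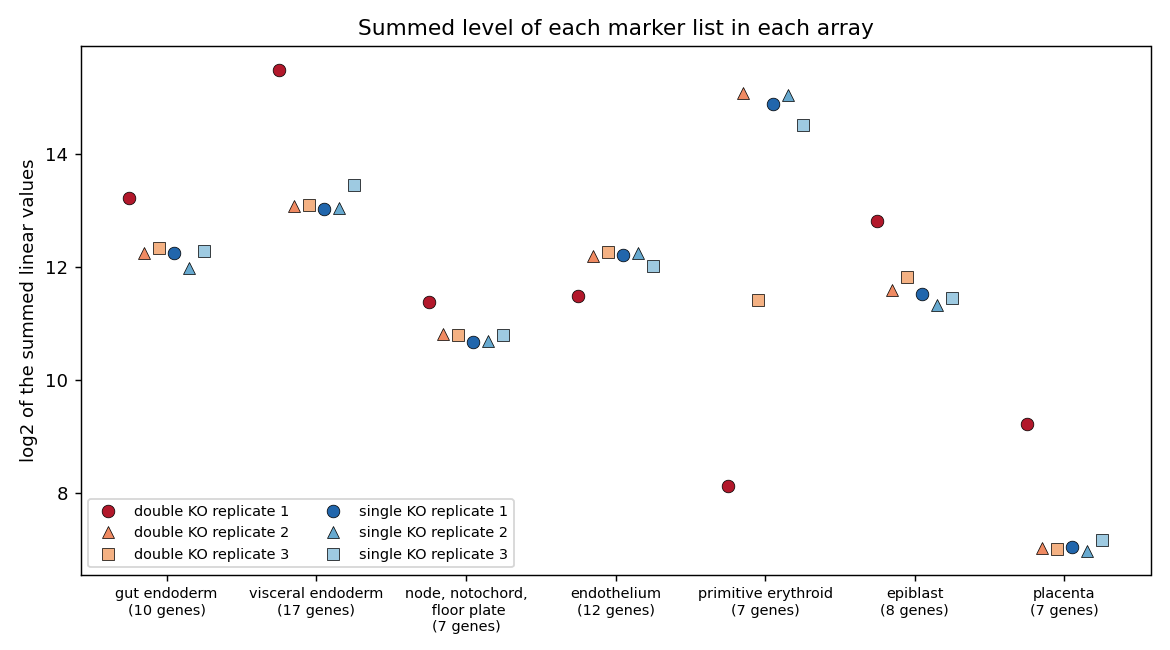
Log2 of the summed linear values (vertical axis) of the gut endoderm genes and of 6 marker lists in each array, with double knockout arrays in red to orange and single knockout arrays in blue. Double knockout replicate 1 is highest for gut endoderm (13.21) and visceral endoderm (15.49) and lowest for endothelium (11.49) and primitive erythroid genes (8.13).

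The remaining lists had their most extreme sums in the same array. Epiblast genes were higher for 8 of 8, and 5 of the 8 were below the array medians. Their sums, to which Dnmt3b contributes most, were 12.81, 11.60 and 11.83 in the double knockout and 11.33 to 11.53 in the single knockout. In double knockout replicate 1, 2 of the 8, Pou5f1 and Nanog, were more than 1 log2 unit higher than in the other 5 arrays. Tdgf1 was lower there, at -1.07. Placental genes, all 7 below the array medians on average, had sums of 9.23, 7.03 and 7.02 in the double knockout and 6.99 to 7.17 in the single knockout. Only 3 of the 7, Prl7a1, Prl5a1 and Cts7, were more than 1 log2 unit higher in double knockout replicate 1 than in the other 5 arrays. The median of this difference over the 7 was 0.097. Primitive erythroid sums were 8.13, 15.07 and 11.42 in the double knockout and 14.51 to 15.04 in the single knockout, low in replicates 1 and 3, with 6 of 7 genes lower and 3 below the array medians. With all arrays the list medians were 0.39 for epiblast, 0.14 for placental and -1.20 for erythroid genes, and without double knockout replicate 1 they were 0.29, 0.013 and -0.88. The genes named by smallest unadjusted p were Dppa4 (0.23, and 0.19 without that array) and Pou5f1 (2.35 and 1.09) for epiblast, Psg21 (0.14 and 0.18) and Prl5a1 (1.19 and 0.049) for placenta, and Ermap (-0.68 and -0.55) and Klf1 (-1.20 and -0.88) for red cells. None of them passed, at limma adjusted p = 0.872 each. Among visceral endoderm genes these were the endocytic receptor gene Lrp2 (0.51, SE 0.22) and the fibrinogen gene Fgb (0.73, SE 0.41), which differed by 0.25 and 0.21 without that array. Among endothelial genes they were Emcn (-0.90, SE 0.54) and Cdh5 (-0.52, SE 0.45), which differed by -0.25 and 0.040 without it, so that the sign of the Cdh5 difference turned.

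Genes that act upstream of or beside the 10 genes did not pass the test either. Of 17 genes of endoderm induction measured, which include Nodal pathway and primitive streak regulators, 12 were higher and 5 lower with a median of 0.044 (0.087 without double knockout replicate 1), and 0 passed by limma in either direction, with 0 at an unadjusted p under 0.05. Foxh1, the forkhead partner of Smad proteins in Nodal signalling, read 9.87, 8.44 and 8.63 in the double knockout and 8.42, 7.97 and 7.83 in the single knockout. The groups did not overlap, and the difference was 0.91 (SE 0.38), or 0.47 without double knockout replicate 1. Nodal itself differed by 0.35 (SE 0.15) with overlapping groups, or by 0.20 without that array. Foxh1 and Nodal had limma adjusted p = 0.872.

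Of 22 genes of gut regions and gut epithelium, 14 were higher and 8 lower, with a median of 0.083, or 0.014 without double knockout replicate 1. None passed by limma, and 2 had an unadjusted p under 0.05, a level that 4.96% of all genes reached. Isl1, a homeobox gene of foregut endoderm that is also active in heart progenitors and motor neurons, read 9.74, 9.71 and 9.78 in the double knockout and 9.52, 9.39 and 9.43 in the single knockout. Its groups did not overlap and its difference of 0.29 (SE 0.06, limma adjusted p = 0.872) was the same size without replicate 1. The keratin gene Krt19, of simple epithelia, differed by -0.31 (SE 0.13, limma adjusted p = 0.872) with overlapping groups, or by -0.24 without replicate 1.

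Over the 6 arrays the mean centred level of the 10 genes was 0.38, -0.029 and -0.0097 in the double knockout and -0.078, -0.21 and -0.048 in the single knockout. The 5 genes most like this profile, by Pearson correlation over 6 arrays among 10538 genes brighter than the array medians, were Ppt2 (0.998), Cobll1 (0.995), Grsf1 (0.992), Kbtbd8 (0.992) and Degs1 (0.991). Without double knockout replicate 1 the correlations over 5 arrays were 0.989, 0.978, 0.980, 0.948 and 0.944. These 5 arrays took part in picking the genes, so their correlations are no separate support. The points share a common normalization and 1 outlying array, and the profile averages genes of opposite direction. These genes had differences between 0.088 (Ppt2) and 0.53 (Cobll1), all at limma adjusted p = 0.872.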

How the data were processed

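The authors deposited log2 values for 45101 probe sets on 6 arrays, made with RMA (background correction, a common distribution across arrays and a summary per probe set) per the submitters' processing notes; no version is stated there. The log2 scale was read from the values (2.64 to 15.17). Extraction used Trizol and RNeasy with biotin labelling, per the labels' protocols. Probe sets with exactly 1 symbol in the platform annotation (34945) gave 18193 genes, each taken at its brightest probe set. Groups came from the sample titles. Double against single knockout was fitted in limma 3.58.1 under R 4.3.3 (lmFit, then eBayes, two-sided). The p-values were adjusted over all genes by Benjamini-Hochberg with a threshold of 0.05. Exact permutation tests (scipy 1.17.1) were added, and the fit was tested on simulated data. The simulated noise was independent for each gene and array and held no outlying array, so the fit was not tested under that condition. As nothing says the samples came from separate litters, p-values measure only the spread between these samples, and 3 arrays per group limit the precision.

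The members, the 9 other lists and the rule for named genes (all members; per list the members past the threshold or, with none, the 2 of smallest unadjusted p; the 5 most alike genes) were chosen with earlier results of these data known. Alternatives were a replicate block, trend and robust moderation, dim genes left out, all probe sets, mean of probe sets, quantile normalization, median centring, array weights, a threshold of 0.1 and leaving out each array. Some other listed genes were not analysed here.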

Additional observations from a re-analysis of the deposited data

How the results depend on the processing

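Over 15 alternatives no gut endoderm gene passed, and the smallest limma adjusted p of any was 0.698, for Sox17 with array weights. Of 148 values of the 10 genes under these alternatives, 142 kept their sign and 6 changed it, all for Pyy or Cpm. The block, trend and robust moderation, the dim gene filter, all probe sets and the threshold of 0.1 left every estimate unchanged. No sign could change there, so the 142 overstate how far direction was tested. The mean of probe sets could move only Sox17 and Cpm. Pyy differed by 0.0036 after a second quantile normalization and by 0.098 with array weights, and by -0.13 to 0.13 when single arrays were left out, with values above 0 without double knockout replicate 1 (0.13) or single knockout replicate 1 (0.048). Cpm differed by -0.0050 with array weights and by -0.064 to 0.31 when single arrays were left out. The median of the 10 genes ranged from 0.15 to 0.31 over the alternatives. With dim genes left out 8 of the 10 genes remained and the median was 0.20. Dim there meant a mean below the median over all genes tested, which left out Foxa3 and Trh. Leaving out single arrays gave ranges of 0.27 to 0.58 for Sox17, 0.20 to 0.35 for Foxa1 and -1.41 to -0.39 for Nepn. Fzd2 was -2.49 with the mean of its probe sets (limma adjusted p = 0.0691), when 0 genes were called, and -2.49 to -2.30 when single arrays were left out, when 0 to 1 genes were called. Its call was lost without double knockout replicate 3 (adjusted p = 0.0759) and without any one of the single knockout arrays (0.0831, 0.120 and 0.109 for leaving out replicates 1, 2 and 3); the cause was not tested. With all probe sets tested 2 were called, both of Fzd2.

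Deviations of same-numbered arrays from their group means had correlations of 0.094, -0.037 and -0.13 for numbers 1 to 3. Those of differently numbered arrays ran from -0.15 to 0.28. With 3 arrays per group and 1 outlying array these values cannot settle whether the numbers pair the samples. With the replicate number as a block 1 gene was called, Fzd2 at -2.42 (limma adjusted p = 0.0234), and the median of the 10 genes was 0.24. With 3 arrays per group 1 array weighs heavily: leaving out double knockout replicate 1 took the SE of Nepn to 0.10, against 0.51 with all arrays. Foxa3 lay below the array medians in 5 arrays.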
